A study of Homo sapiens with 36 samples.

Results

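The hypoxia and glycolysis genes are 34 genes chosen by symbol: the oxygen sensors EGLN1 and EGLN3, other genes that cells raise when oxygen is short, and the enzymes and transporters that carry glucose to lactate. All 34 were found among the 34687 gene symbols of the deposited expression values, PKM under its older symbol PKM2. Their signals were followed on 36 Illumina beadchips in cells derived from WA09, a human embryonic stem cell line that had been kept on mouse embryonic fibroblast feeders and was plated on matrigel for differentiation. The 12 groups held 3 arrays each. BE cultures, meant to give melanocytes, received 100 nM LDN-193189, 10 µM SB431542, 3 µM CHIR 99021, 25 ng/ml BMP4 and 100 nM EDN3, and were collected on days 8 and 11. NC (neural crest) cultures received LDN-193189, SB431542 and CHIR 99021 at the same doses and were collected on days 3, 6, 8 and 11. DSi (dual SMAD inhibition, a central nervous system condition) cultures received only LDN-193189 and SB431542 and were collected on the same days as NC. LDN-193189 inhibits type I receptors of bone morphogenetic proteins, SB431542 those of activin, Nodal and TGF-beta, and CHIR 99021 inhibits GSK3, which activates WNT signalling. Day 1 and day 0 cells carry no condition of their own, although their labels also name LDN-193189 and SB431542, so whether day 0 cells had met the inhibitors is not stated. The labels call the cells of every group embryonic stem cells. The labels state neither the oxygen tension nor the glucose of the medium.

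When oxygen is plentiful, prolyl hydroxylases of the EGLN family mark the alpha subunits of hypoxia-inducible factor (HIF), and the VHL ubiquitin ligase has them destroyed. When oxygen falls, HIF alpha persists, pairs with ARNT and binds DNA at a short core, ACGTG or GCGTG. Its targets include glucose transporters, most glycolytic enzymes, pyruvate dehydrogenase kinases, lactate dehydrogenase A and the mitophagy receptors BNIP3 and BNIP3L. They also include collagen prolyl hydroxylases, the vessel signals VEGFA and ADM, and EGLN1 and EGLN3 themselves, which closes a feedback loop. Pluripotent stem cells are known for a high glycolytic rate even in normal oxygen, and many lineages lower it as they differentiate.

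The promoters of the members that moved most between days 3 and 6 in NC cultures are printed here because the genes rose or fell together in the results that follow. Each window runs from 250 bases before to 50 bases after a gene's annotated start, 5′ to 3′ on the gene's own strand, from RefSeq on GRCh38.p14. Capitals mark ACGTG and GCGTG and, for the opposite strand, CACGT and CACGC. The first 4 genes had the largest rises among members that matched a window, and PFKP and HK1 had the largest falls. The fall of HK1 was not kept with median scaling (0.046) or with the mean of its probes (0.065). ANKRD37 (ankyrin repeat protein) lies at chr4:185396591-185396890, plus strand; P4HA1 (collagen prolyl hydroxylase) at chr10:73096817-73097116, minus strand; PFKFB4 (which sets fructose 2,6-bisphosphate) at chr3:48556754-48557053, minus strand. BNIP3 (mitophagy receptor) lies at chr10:131981874-131982173, minus strand, PFKP (platelet-type phosphofructokinase) at chr10:3067720-3068019, plus strand, and HK1 (hexokinase) at chr10:69269750-69270049, plus strand.
ANKRD37: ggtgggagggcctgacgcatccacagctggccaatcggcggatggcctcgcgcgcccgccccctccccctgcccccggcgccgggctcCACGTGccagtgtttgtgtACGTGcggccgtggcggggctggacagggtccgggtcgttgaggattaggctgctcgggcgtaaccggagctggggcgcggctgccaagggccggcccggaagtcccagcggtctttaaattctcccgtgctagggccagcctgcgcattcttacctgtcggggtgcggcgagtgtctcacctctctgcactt
P4HA1: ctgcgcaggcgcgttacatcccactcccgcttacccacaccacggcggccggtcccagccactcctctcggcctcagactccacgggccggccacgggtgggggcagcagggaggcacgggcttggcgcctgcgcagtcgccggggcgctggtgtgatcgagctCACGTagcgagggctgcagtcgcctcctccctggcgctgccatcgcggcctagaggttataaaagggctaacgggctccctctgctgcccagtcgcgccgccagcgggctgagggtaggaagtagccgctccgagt
PFKFB4: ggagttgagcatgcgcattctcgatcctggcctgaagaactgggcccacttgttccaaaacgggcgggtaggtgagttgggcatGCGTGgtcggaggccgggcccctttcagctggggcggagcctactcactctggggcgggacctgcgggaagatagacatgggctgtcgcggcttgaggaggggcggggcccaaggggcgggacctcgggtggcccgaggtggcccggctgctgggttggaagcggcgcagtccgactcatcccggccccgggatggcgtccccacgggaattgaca
BNIP3: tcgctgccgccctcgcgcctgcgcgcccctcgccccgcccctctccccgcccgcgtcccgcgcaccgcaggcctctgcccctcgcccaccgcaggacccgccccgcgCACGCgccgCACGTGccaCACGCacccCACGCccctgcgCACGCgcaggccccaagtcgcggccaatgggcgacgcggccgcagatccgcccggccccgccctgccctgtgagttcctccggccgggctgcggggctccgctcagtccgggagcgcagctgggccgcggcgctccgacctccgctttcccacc
PFKP: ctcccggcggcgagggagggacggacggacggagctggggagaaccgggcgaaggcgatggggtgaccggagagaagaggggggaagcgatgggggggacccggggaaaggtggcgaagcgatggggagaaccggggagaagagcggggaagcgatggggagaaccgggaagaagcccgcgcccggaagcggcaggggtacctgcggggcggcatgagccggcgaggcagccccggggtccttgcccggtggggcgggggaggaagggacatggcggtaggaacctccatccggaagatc
HK1: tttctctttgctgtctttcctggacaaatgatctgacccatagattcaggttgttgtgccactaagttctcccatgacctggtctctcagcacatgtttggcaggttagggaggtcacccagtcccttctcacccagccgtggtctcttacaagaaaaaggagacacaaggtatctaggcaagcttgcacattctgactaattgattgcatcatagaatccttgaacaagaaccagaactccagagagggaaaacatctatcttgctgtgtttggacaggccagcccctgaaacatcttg

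Among the members, 30 of 34 matched a window, and 1 window per gene was used, the first listed, so the other annotated starts that HK1, PFKP and some further members have were not searched. Those without a window here were BNIP3L, NDRG1, SLC2A3 and VEGFA. ACGTG stood on either strand in 14 of the 30 member windows (46.7%) and in 21.6% of the windows of all 27305 genes. GCGTG stood in 14 of the 30 (46.7%) and in 36.3% of all windows. At least 1 of the 2 cores stood in 22 of the 30 (73.3%), against 48.4% of all windows. CACGTG, which holds ACGTG on both strands and is also a general E-box, stood in 5 of the 30 (16.7%) and in 7.43% of all windows, and it is present in ANKRD37 and BNIP3. The member windows were richer in G and C, with a median of 69.7% against 58.3% over all windows, and the part of base composition in these shares was not tested. The members were also chosen as hypoxia and glycolysis genes, so these shares describe the list and are no result of the arrays. For PFKP and HK1, the lack of a match says only that these letters are not in this window.

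The signal of each probe was background-corrected and quantile normalized, and values are log2 signals of the probe standing for a gene, with SDs over 3 arrays (n = 3 in every group). Differences are log2 differences between group means from 1 limma fit over all arrays, and a gene is called higher or lower when its p-value, adjusted by Benjamini-Hochberg over all 22848 genes of the comparison, is under 0.05. Signals are compared for 1 gene across groups, never between genes, and in these bulk samples fewer cells of a type and less RNA per cell cannot be told apart. The mean raw signal per array ran from 214.7 to 462.5, 16055 to 19724 of the 47323 probes were detected, and arrays of 1 group correlated at 0.972 to 0.987. For 31 of the 36 arrays the most similar array belonged to the same group. Whether replicates were separate cultures is not stated, so p-values reflect only how far these samples differ, a spread that may be technical. In the title of the first DSi array of day 3 (replicate 1) a suffix found on the other DSi titles is missing, with no reason stated. The markers matched the labels in the main: NANOG was detected on all day 0 and day 1 arrays and on none later, and the forebrain factor LHX2 on DSi arrays from day 6 and on no other array. Other anterior neural markers were less limited to DSi. PAX6 was detected on all NC and BE arrays from day 6, averaging 8.34 to 9.53, against 10.36 to 11.34 in DSi. SIX6 was detected on all arrays of NC at days 6 and 8 and of BE at day 8, and SIX3 on at most 1 array of any NC or BE group. The neural crest factor SOX10 averaged 9.22 to 10.32 in NC and BE cultures from day 6 and 4.47 to 5.88 in DSi cultures. Other crest markers were less limited to NC and BE. TFAP2A was detected on all DSi arrays from day 6, averaging 6.70 to 7.19, against 9.62 to 10.66 in NC and BE. TFAP2B was detected on all 3 DSi arrays of day 11. FOXD3 was detected on 2 day 0 arrays and on only 1 BE array of day 11. The pigment gene TYRP1 averaged 10.77 ± 0.53 in BE cultures at day 11, against 4.84 ± 0.38 in NC cultures. PMEL was detected on all arrays from day 0, and TYRP1 and DCT also on all 3 DSi arrays of day 11, so pigment genes are not limited to BE cultures. LIN28A, a stem cell marker, stayed between 11.48 and 13.04 in all groups. Of markers of other cells, the neuronal gene STMN2 averaged 12.03 ± 0.47 in NC cultures at day 11, against 7.13 ± 0.28 in DSi cultures, and AFP, an endoderm gene, averaged 9.83 ± 0.37 at day 0 and was above background on 0 of 3 arrays in each group from day 3 except BE at day 11. The mesoderm factor TBXT and the endothelial gene PECAM1 were above background on at most 1 array of any group. The part of these cells in the members' differences was not tested.

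The hypoxia markers CA9, a surface carbonic anhydrase, and PDK1, a pyruvate dehydrogenase kinase, were above background on 0 of 36 arrays and could not be tested. For these probes, only a bound at background can be given, and that holds for every group. The angiogenic factor VEGFA was tested on 1 of 3 probes. That probe was dim, averaging 5.95 over all arrays, but was above background on 35 of 36. The other 2 probes were detected on 0 arrays. This VEGFA probe passed the threshold in none of the comparisons between days 3, 6 and 8. Across the 32 tested members the group means spread by 0.43 (ENO1, enolase) to 5.70 (ADM, the secreted peptide adrenomedullin), and 15 of the 32 had their highest group mean in NC cultures at day 6. The lowest group mean fell in DSi cultures at day 3 for 11 members and at day 0 for 7.

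**Figure D1:**
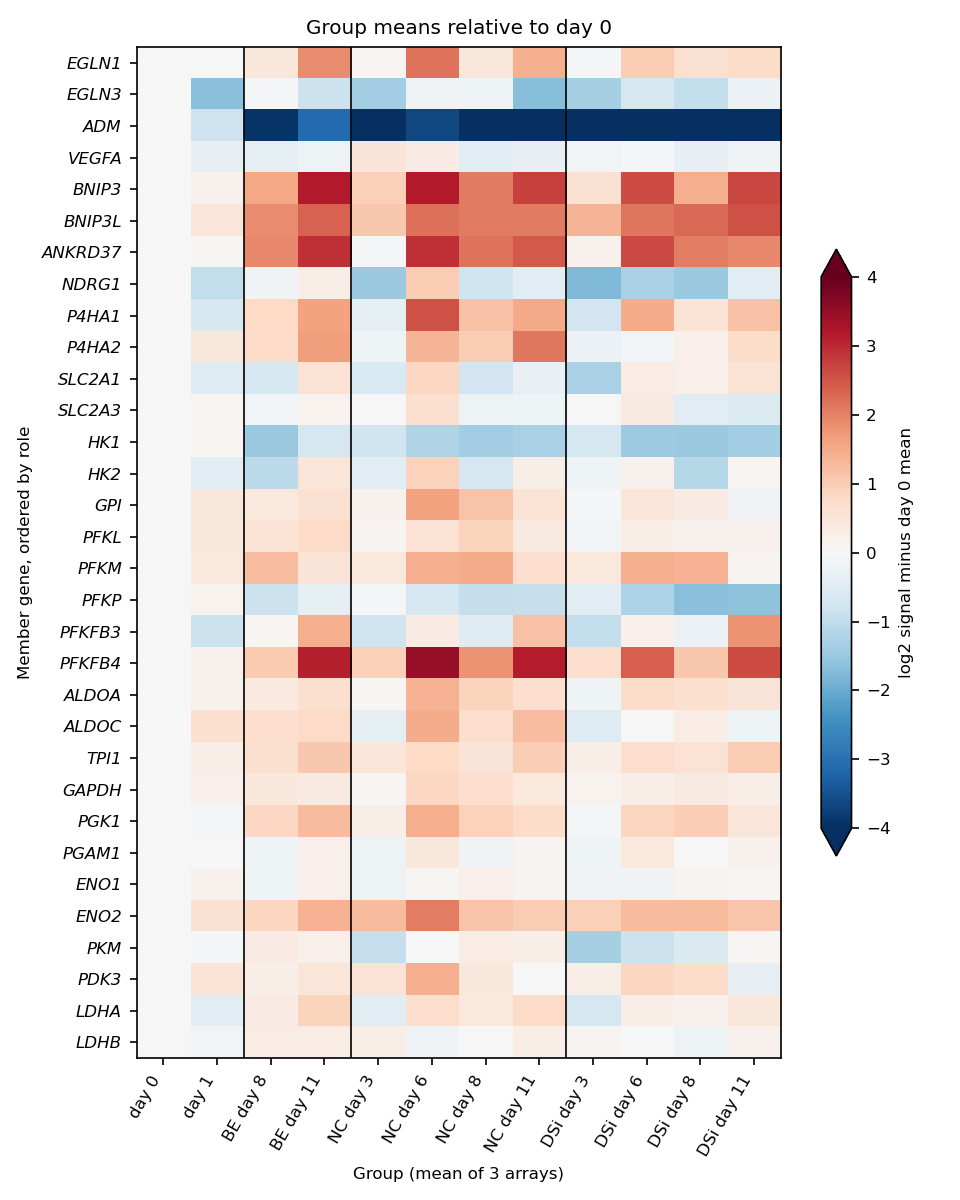
Heat map of group means (3 arrays each) relative to the day 0 mean, as log2 signal, for the 32 tested members in rows ordered by role and the 12 groups in columns; red is higher and blue lower than day 0, and colours stop at a difference of 4 either way. The red block at NC day 6 runs through most rows, ADM is blue in every group after day 1 and HK1 and PFKP are blue from day 6.

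The first day moved 1 member past the threshold. The oxygen sensor EGLN3 was at 5.78, 4.64 and 4.84 on the day 1 arrays, against 6.91, 6.70 and 6.68 on the day 0 arrays. Every day 1 value lay below every day 0 value, and 2 of the 3 day 1 arrays were not above background. EGLN3 fell by 1.67 (SE 0.30, adjusted p = 2.00e-04), and it was the 1 of 32 members called, with 4.4% of all genes called. ADM stood at 11.37 ± 0.42 at day 1 and 12.19 ± 0.32 at day 0, a difference that did not pass the threshold. Scaled to each array's median in place of quantile normalization, 0 members were higher and 5 lower at day 1.

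By day 3 ADM had fallen far below day 0 in both conditions, though it was above background on every array. Its values were 6.41, 6.80 and 6.25 in NC cultures, against 12.26, 12.48 and 11.84 at day 0. In DSi cultures they were 6.16, 7.48 and 6.01. No day 3 array came within 4 log2 units of a day 0 array, and ADM fell by 5.70 in NC (SE 0.39, adjusted p = 5.23e-16) and by 5.64 in DSi (SE 0.39, adjusted p = 8.52e-16). These 2 comparisons share the day 0 arrays, as do all comparisons with day 0.

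Another 7 members fell in at least 1 condition. PKM, the pyruvate kinase gene, was at 9.49, 10.15 and 9.80 in NC cultures and at 9.01, 9.73 and 9.55 in DSi cultures, against 10.79, 10.79 and 10.66 at day 0; it fell by 0.93 in NC (SE 0.17) and by 1.32 in DSi (SE 0.17). NDRG1, a stress-responsive gene tied to differentiation, fell by 1.47 in NC and 1.77 in DSi (SE 0.31 each), and EGLN3 by 1.40 and 1.34 (SE 0.30 each). HK1, which encodes the hexokinase of most tissues, fell by 0.81 and 0.70 (SE 0.14 each) and LDHA, the lactate dehydrogenase subunit linked to lactate output, by 0.47 and 0.70 (SE 0.16 each). SLC2A1 (the glucose transporter GLUT1) and PFKFB3 (the other regulator of phosphofructokinase) passed only in DSi, where they fell by 1.30 (SE 0.30) and 0.99 (SE 0.31).

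A few members rose over the same days. The mitophagy receptor BNIP3L was at 8.04, 8.28 and 8.23 in NC cultures and at 8.57, 8.46 and 8.38 in DSi cultures, against 6.77, 7.17 and 7.41 at day 0, with no overlap. Its rise was 1.07 in NC (SE 0.16, adjusted p = 1.25e-06) and 1.35 in DSi (SE 0.16, adjusted p = 6.36e-09). ENO2, the neuronal enolase, rose by 1.27 in NC and by 0.96 in DSi (SE 0.19 each). BNIP3, PFKFB4, PDK3 (pyruvate dehydrogenase kinase) and TPI1 (triosephosphate isomerase) rose by 0.47 to 0.96 in NC. In all, 6 members were higher and 6 lower in NC at day 3, where 19.1% of all genes were called, and 2 were higher and 8 lower in DSi, where 16.7% were called. Median scaling gave 1 higher and 10 lower in NC, and 1 higher and 9 lower in DSi; without day 0 replicate 1, NC gave 3 higher and 5 lower. LDHA, TPI1, PDK3, PFKFB4 and BNIP3 in NC and PFKFB3 in DSi lost their calls without 1 of several arrays. Between NC and DSi at day 3, 0 of 32 members were called by limma, with 0.481% of all genes called and 4 members at an unadjusted p under 0.05.

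**Figure D2:**
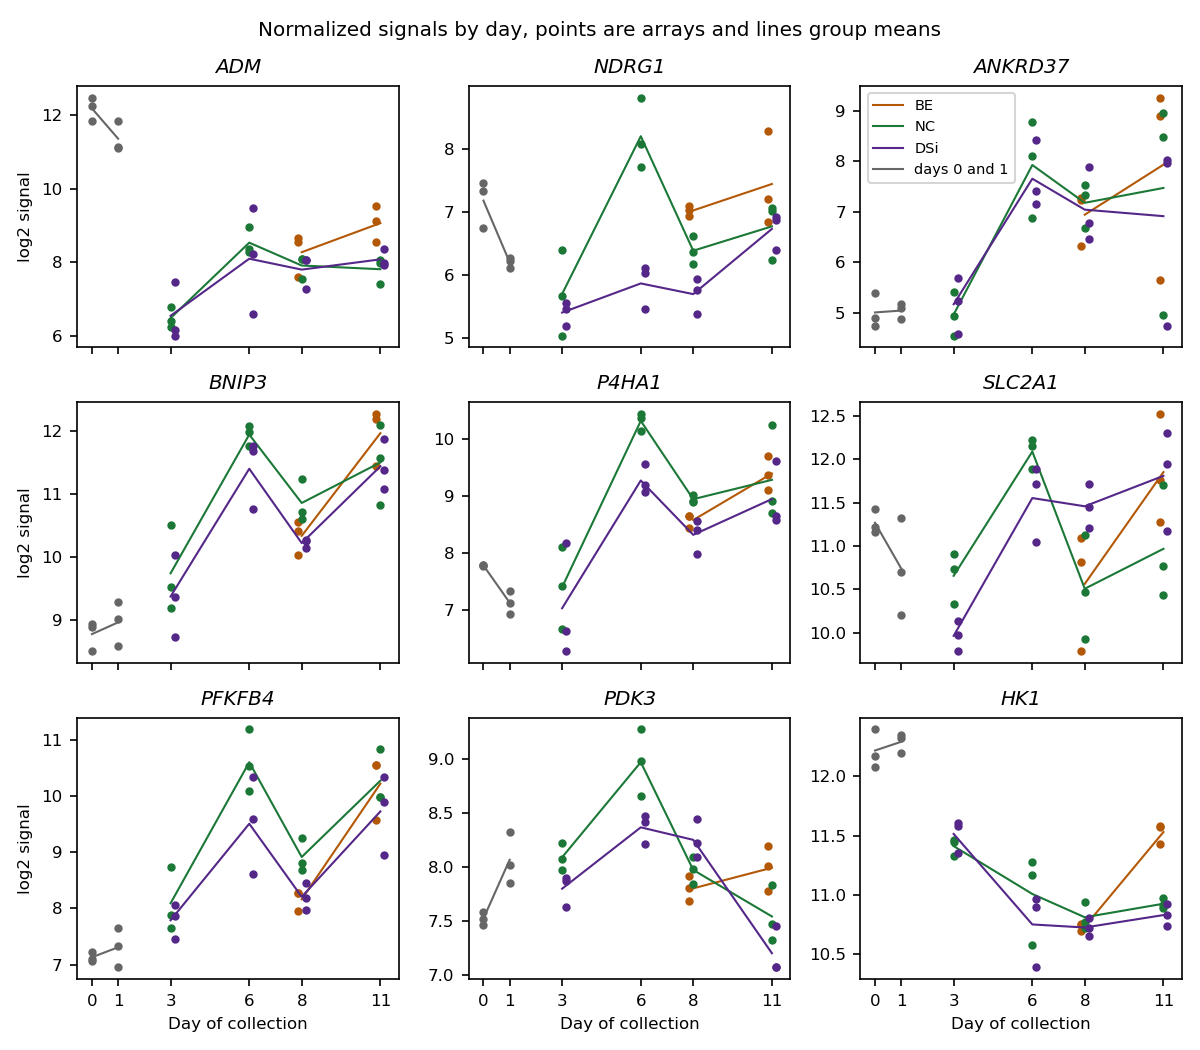
Log2 signals by day of collection for 9 members, with a point for each array and a line through the group means of BE, NC, DSi and days 0 and 1. NDRG1, P4HA1, BNIP3 and PFKFB4 peak at day 6 in NC, ADM falls by more than 5 log2 units by day 3, and HK1 is below its day 0 mean in all later groups from day 3.

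Of the 10 steps compared, the one with most members called ran between days 3 and 6, when 25 of 32 rose and 3 fell in NC cultures. All 10 roles held at least 1 gene that rose. Of all genes, 22.5% were called in this step, 10.9% higher and 11.6% lower; the median difference of the members was 1.16 and that of all genes -0.01. With median scaling 28 members were higher and 0 lower, against an all-gene median of 0.10.

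Both oxygen sensors rose in NC cultures. EGLN1, the main HIF prolyl hydroxylase, was at 7.36, 6.75 and 7.18 at day 6, against 5.56, 5.04 and 4.47 at day 3, where only 1 array was above background. The groups did not overlap, and the rise was 2.07 (SE 0.29, adjusted p = 2.96e-07). EGLN3 rose by 1.27 (SE 0.30, adjusted p = 0.00137).

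Several genes outside glycolysis made large moves. P4HA1, a collagen prolyl 4-hydroxylase subunit, was at 10.45, 10.15 and 10.37 in NC at day 6, against 8.11, 7.42 and 6.67 at day 3. NDRG1 was at 8.80, 8.07 and 7.72 at day 6, against 5.67, 6.39 and 5.04 at day 3. ANKRD37 was at 8.11, 6.88 and 8.78 at day 6, against 5.41, 4.93 and 4.54 at day 3, of which only 5.41 was above background. In each of these 3 genes the lowest day 6 array stood above the highest day 3 array. P4HA1 rose by 2.92 (SE 0.32, adjusted p = 1.87e-09), a 7.59-fold difference, NDRG1 by 2.49 (SE 0.31, adjusted p = 2.70e-08) and ANKRD37 by 2.96 (SE 0.71, adjusted p = 0.00141), a size that leans on signals at background. P4HA2, the other collagen hydroxylase, rose by 1.54 (SE 0.23, adjusted p = 1.07e-06).

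Both mitophagy receptors rose as well. BNIP3 was at 11.98, 12.08 and 11.76 in NC at day 6, against 10.51, 9.52 and 9.19 at day 3. BNIP3 rose by 2.20 (SE 0.29, adjusted p = 8.84e-08) and BNIP3L by 1.14 (SE 0.16, adjusted p = 3.94e-07), again with no overlap. ADM regained a part of its signal: its arrays lay between 8.28 and 8.97 at day 6, against 6.25 to 6.80 at day 3, a rise of 2.05 (SE 0.39, adjusted p = 6.07e-05). It was still 3.65 below day 0 (SE 0.39).

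At the entry of glucose, SLC2A1 was at 12.22, 12.15 and 11.89 in NC at day 6, against 10.90, 10.73 and 10.34 at day 3, and rose by 1.43 (SE 0.30, adjusted p = 3.55e-04). SLC2A3 (GLUT3), whose probe may also bind the near-identical SLC2A14, rose by 0.66 (SE 0.16). The hexokinases went opposite ways. HK2, the inducible hexokinase, was at 9.40, 8.62 and 8.27 in NC at day 6, against 7.21, 7.44 and 7.52 at day 3, and rose by 1.37 (SE 0.40, adjusted p = 0.0086). HK1 was at 11.17, 11.28 and 10.58 at day 6, against 11.46, 11.44 and 11.33 at day 3. It fell by 0.40 (SE 0.14, adjusted p = 0.0302), with its arrays below those of day 3, but the difference was 0.046 with median scaling and 0.065 with the mean of its probes. A second, dimmer probe of HK1 differed by 0.53. GPI, the isomerase of the next step, rose by 1.45 (SE 0.18, adjusted p = 4.07e-08).

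Among the phosphofructokinases the 3 isoforms differed. PFKM (muscle type) rose by 1.04 (SE 0.17, adjusted p = 8.92e-06), PFKL (liver type) was 0.49 higher without passing, and PFKP fell by 0.60 (SE 0.20, adjusted p = 0.0233), a call lost without NC day 6 replicate 3 or NC day 3 replicate 1. PFKFB4 was at 11.19, 10.55 and 10.09 in NC at day 6, against 8.74, 7.89 and 7.66 at day 3, and rose by 2.51 (SE 0.32, adjusted p = 4.45e-08). PFKFB3 rose by 1.12 (SE 0.31, adjusted p = 0.00546) on its brighter probe, while its other probe differed by -0.13; these probes disagree.

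Of the 9 genes of lower glycolysis, 7 rose and 0 fell in NC. Both aldolases did so, ALDOC by 1.87 (SE 0.24, adjusted p = 5.03e-08) and ALDOA by 1.35 (SE 0.15, adjusted p = 1.62e-09). PGK1, the first enzyme to make ATP in the pathway, rose by 1.21 (SE 0.16), PKM by 0.93 (SE 0.17), GAPDH by 0.77 (SE 0.14), ENO2 by 0.76 (SE 0.19) and PGAM1 by 0.66 (SE 0.14). PGAM1 shares near-identical copies in the genome, such as PGAM4, that its probe may also bind. TPI1 and ENO1 did not pass, with differences of 0.33 and 0.26. At the fate of pyruvate, LDHA was at 13.39, 13.36 and 13.38 in NC at day 6, against 12.36, 12.01 and 12.23 at day 3, and rose by 1.18 (SE 0.16, adjusted p = 2.84e-07). PDK3 rose by 0.88 (SE 0.18, adjusted p = 1.73e-04). LDHB, the heart-type subunit that favours pyruvate, fell by 0.40 (SE 0.13, adjusted p = 0.0168), but its difference was 0.021 with median scaling. Leaving out 1 array ended the calls of ENO2 (NC day 3 replicate 2), HK2 (NC day 6 replicate 1), PFKFB3 (NC day 6 replicate 3) and, for several arrays each, HK1 and LDHB.

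**Figure D3:**
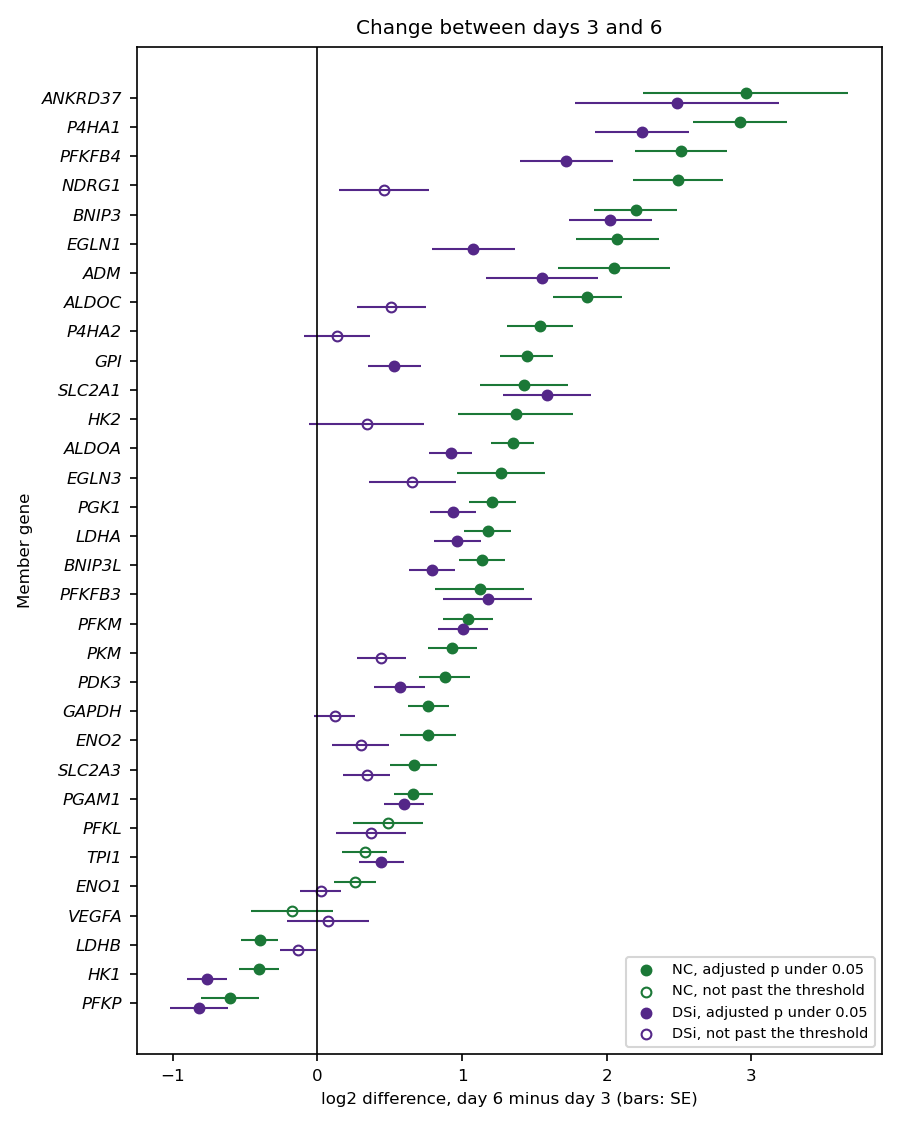
Log2 difference between day 6 and day 3 (horizontal axis, bars are standard errors) for each member in NC (upper, green) and DSi (lower, purple), filled where the adjusted p was under 0.05. The top rows, such as ANKRD37, P4HA1 and PFKFB4, are filled in both conditions, while NDRG1, ALDOC and P4HA2 are filled only for NC.

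In DSi cultures 17 of 32 members rose and 2 fell between days 3 and 6, with 14.5% of all genes called (6.81% higher, 7.69% lower) and a median difference of 0.55 among the members. Of these 17, 16 also rose in NC, the exception being TPI1. A second TPI1 probe, above background on all 36 arrays, differed by 0.12 in DSi and 0.13 in NC. The TPI1 probe used differed by 0.44 and 0.33. P4HA1 was at 9.56, 9.19 and 9.07 at day 6, against 8.18, 6.64 and 6.27 at day 3, and rose by 2.25 (SE 0.32, adjusted p = 1.13e-06). BNIP3 was at 11.75, 11.68 and 10.76 at day 6, against 10.02, 9.36 and 8.73 at day 3, and rose by 2.02 (SE 0.29, adjusted p = 8.65e-07). SLC2A1 rose by 1.59 (SE 0.30), PFKFB4 by 1.72 (SE 0.32), LDHA by 0.97 (SE 0.16) and EGLN1 by 1.08 (SE 0.29). ANKRD37 rose by 2.49 (SE 0.71, adjusted p = 0.0117), with 2 of 3 day 3 arrays above background. HK1 and PFKP fell by 0.76 (SE 0.14) and 0.82 (SE 0.20). TPI1 and GPI, at 0.44 and 0.53, and PDK3, at 0.57, lost their calls without 1 of several arrays. ADM lost its call without DSi day 6 replicate 2, PFKP without DSi day 6 replicate 3, and ANKRD37 without that array or DSi day 3 replicate 2. Under median scaling 14 members were higher and 0 lower, and without DSi day 3 replicate 1 the counts were 15 higher and 2 lower. ADM rose by 1.55 (SE 0.39), with overlapping arrays: 8.24, 9.48 and 6.59 at day 6, against 6.16, 7.48 and 6.01 at day 3.

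At day 6 itself 13 of 32 members were higher in NC than in DSi cultures and 0 lower, with 5.38% of all genes called (2.67% higher) and a median difference of 0.54 among the members. NDRG1 was at 8.80, 8.07 and 7.72 in NC, against 6.03, 6.12 and 5.46 in DSi. P4HA2 was at 8.19, 8.14 and 8.28 in NC, against 6.93, 7.14 and 6.12 in DSi. ALDOC was at 10.14, 9.84 and 9.74 in NC, against 8.54, 8.76 and 7.90 in DSi. The arrays of the 2 conditions lay apart in all 3 genes. NDRG1 was higher by 2.33 (SE 0.31, adjusted p = 4.32e-07), ALDOC by 1.51 (SE 0.24, adjusted p = 1.53e-05) and P4HA2 by 1.47 (SE 0.23, adjusted p = 1.02e-05). GPI followed at 1.14 (SE 0.18, adjusted p = 1.94e-05), EGLN1 at 1.13 (SE 0.29), PFKFB4 at 1.10 (SE 0.32) and P4HA1 at 1.05 (SE 0.32). Another 6, PKM, ENO2, ALDOA, PGK1, PDK3 and GAPDH, were 0.58 to 0.88 higher. DSi day 6 replicate 3 was the lowest of its group for P4HA2, PFKFB4, ALDOC and GPI; without it 7 members were called, without NC day 6 replicate 2 it was 8, and under median scaling 7.

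The difference in the size of the step itself was tested, with the change from day 3 to day 6 in DSi subtracted from that in NC. It passed for 3 of 32 members, with 1.35% of all genes called: NDRG1 (2.03, SE 0.44, adjusted p = 0.00593), P4HA2 (1.40, SE 0.32, adjusted p = 0.0103) and ALDOC (1.35, SE 0.34, adjusted p = 0.0230). For the 6 other members that rose in NC and were not called in DSi (EGLN3, SLC2A3, HK2, PKM, GAPDH and ENO2), this test did not pass. For PKM, HK2 and GAPDH, other probes differed more in DSi than the probe used. Other PKM probes differed by 1.25 and 0.85 in DSi, against 0.44 on the probe used. A second HK2 probe differed by 0.81 against 0.34, and other GAPDH probes by 0.33 and 0.42 against 0.12. With the replicate number as a block GPI passed too (0.92, SE 0.25, adjusted p = 0.0393). Without DSi day 6 replicate 3 only NDRG1 passed, and under median scaling 1 member did. ALDOC also lost its call without NC day 6 replicate 1, NC day 3 replicate 2 or DSi day 3 replicate 2. A second P4HA2 probe, above background on all 36 arrays, differed by 1.16 in NC and 0.36 in DSi in this step, closer together than the probe used.

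**Figure D4:**
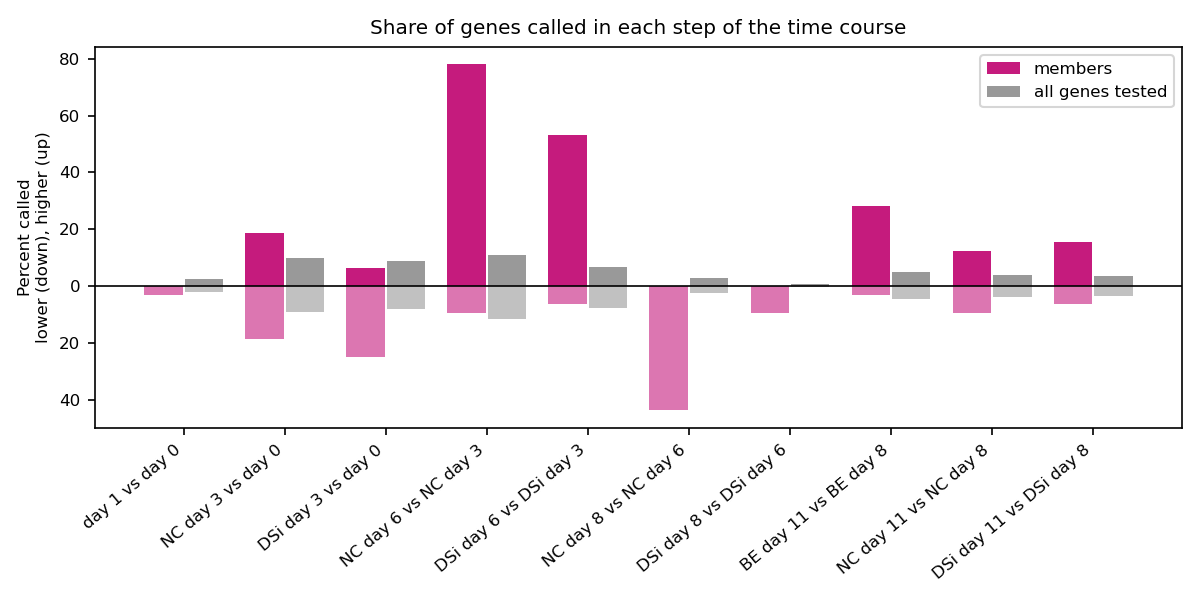
Percent of the 32 members (pink, left bar) and of all 22848 tested genes (grey, right bar) called higher (up) or lower (down) in each step of the time course. The members' bar stands at 78.1% higher in the NC step to day 6 and 43.8% lower in the NC step to day 8, against 10.9% and 2.33% of all genes.

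After day 6 the members came down in NC cultures: by day 8, 14 of 32 fell and 0 rose, with 5.21% of all genes called and 2.33% lower. Each of the 14 had risen from day 3 to day 6, and since both steps share the day 6 arrays the 2 counts are not independent. NDRG1 was at 6.61, 6.18 and 6.37 at day 8, against 8.80, 8.07 and 7.72 at day 6. EGLN1 was at 5.16, 5.69 and 5.35 at day 8, against 7.36, 6.75 and 7.18 at day 6. SLC2A1 was at 10.47, 11.13 and 9.93 at day 8, against 12.22, 12.15 and 11.89 at day 6. No arrays of the 2 days overlapped for these genes. NDRG1 fell by 1.81 (SE 0.31, adjusted p = 8.27e-05), EGLN1 by 1.69 (SE 0.29), PFKFB4 by 1.69 (SE 0.32), SLC2A1 by 1.58 (SE 0.30), HK2 by 1.57 (SE 0.40) and P4HA1 by 1.38 (SE 0.32). BNIP3, PDK3, ENO2, SLC2A3, ALDOC, PGAM1, PGK1 and ALDOA fell by 0.50 to 1.08. Among the members that did not pass, LDHA was at 13.08 ± 0.25 at day 8 and 13.38 ± 0.02 at day 6, and PFKM at 9.73 ± 0.21 and 9.71 ± 0.16 on the same days. Under median scaling 6 members passed. ALDOA, ALDOC, BNIP3, PGK1, HK2 and PGAM1 lost their calls without 1 or more single arrays.

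In DSi cultures only 3 members fell from day 6 to day 8, PFKFB4 by 1.30 (SE 0.32), BNIP3 by 1.18 (SE 0.29) and SLC2A3 by 0.80 (SE 0.16), and 0 rose, with 0.963% of all genes called and 0.368% lower. SLC2A1 was at 11.45, 11.20 and 11.72 in DSi at day 8, against 11.72, 11.89 and 11.05 at day 6, with overlapping arrays. The count of 3 was 0 with median scaling and 0 without DSi day 6 replicate 1, and 1 without DSi day 6 replicate 2 or any DSi day 8 array. The difference between the NC and DSi steps passed for 0 of 32 members, with 0.836% of all genes called; 7 had an unadjusted p under 0.05 in limma. NDRG1 came nearest, at -1.64 (SE 0.44, adjusted p = 0.0564). With the replicate number as a block NDRG1 (SE 0.40, adjusted p = 0.0210) and SLC2A1 (-1.48, SE 0.33, adjusted p = 0.00946) passed; the correlation of deviations of same-numbered NC and DSi arrays was over 0.1 in all 3 pairs at day 6 and in 2 of 3 at day 8.

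In the last step, from day 8 to day 11, PFKFB3 rose in all 3 conditions. It was at 9.30, 10.76 and 10.14 in BE at day 11, against 8.80, 8.81 and 8.48 at day 8, and rose by 1.37 (SE 0.31, adjusted p = 0.00173). In NC it was at 8.74, 10.79 and 9.80 at day 11, against 8.00, 8.50 and 7.88 at day 8, a rise of 1.65 (SE 0.31, adjusted p = 1.73e-04). In DSi it was at 9.94, 10.75 and 10.50 at day 11, against 8.47, 8.11 and 8.57 at day 8, a rise of 2.01 (SE 0.31, adjusted p = 1.13e-05). Each day 11 array stood above every day 8 array of its condition. PFKFB4 rose too, by 2.06 in BE, 1.36 in NC and 1.52 in DSi (SE 0.32 each).

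PFKM went the other way in every condition. It fell by 0.70 in BE, 0.80 in NC and 1.27 in DSi (SE 0.17 each), to 8.78 ± 0.20, 8.93 ± 0.08 and 8.36 ± 0.48 at day 11, against 9.48 ± 0.18, 9.73 ± 0.21 and 9.63 ± 0.11 at day 8. PDK3 fell by 1.05 in DSi (SE 0.18, adjusted p = 6.09e-05). In BE cultures 9 members rose and 1 fell (9.62% of all genes called), among them BNIP3 by 1.63 (SE 0.29), HK2 by 1.55 (SE 0.40), EGLN1 by 1.43 (SE 0.29), SLC2A1 by 1.29 (SE 0.30), P4HA2 by 0.91 (SE 0.23), HK1 by 0.80 (SE 0.14) and LDHA by 0.55 (SE 0.16). In NC 4 rose and 3 fell (7.85% of all genes called), P4HA2 and EGLN1 with the rises and EGLN3 (-1.55, SE 0.30) and GPI (-0.60, SE 0.18) with the falls. In DSi 5 rose and 2 fell (6.86% of all genes called), BNIP3, NDRG1 and PKM with the rises. Under median scaling the splits were 8 and 0 in BE, 1 and 3 in NC, and 1 and 4 in DSi. Without DSi day 8 replicate 2 the DSi rises were 3, and without NC day 11 replicate 2 the NC rises were 2. EGLN1, GPI and PFKFB4 in NC, NDRG1 and PKM in DSi, and HK2, LDHA, PFKM and SLC2A1 in BE lost their calls without 1 or more single arrays. The limma test of BE against NC in this step passed for 0 of 32 members, with 2.41% of all genes called and 10 members at an unadjusted p under 0.05.

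The arrays of 1 condition lay far apart at day 11 for some members. ANKRD37 was at 5.64, 8.89 and 9.25 in BE, at 4.96, 8.96 and 8.49 in NC and at 4.73, 7.97 and 8.03 in DSi, in the order of replicates 1, 2 and 3. In every condition replicate 1 stood near or at background and the other two at 7.97 or above; the SDs were 1.99 in BE, 2.19 in NC and 1.89 in DSi, against at most 0.96 in any earlier group. HK2 was at 7.03, 9.13 and 8.89 in BE, at 6.87, 9.29 and 8.10 in NC and at 7.49, 8.80 and 7.48 in DSi. Replicate 1 was the lowest array in all 3 conditions for 5 members (ADM, ANKRD37, EGLN1, PFKFB3 and PKM) and the highest for 3 (ALDOA, ALDOC and GPI). Replicate 2 was the highest for 6 (BNIP3, EGLN1, HK2, P4HA1, PFKFB3 and SLC2A1) and the lowest for 2 (PFKL and TPI1). Replicate 3 was the lowest for 3 (ALDOA, LDHA and P4HA2) and the highest for 0. Arrays with the same number share a code in their titles whose meaning is not stated, and its part in these values was not tested.

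**Figure D5:**
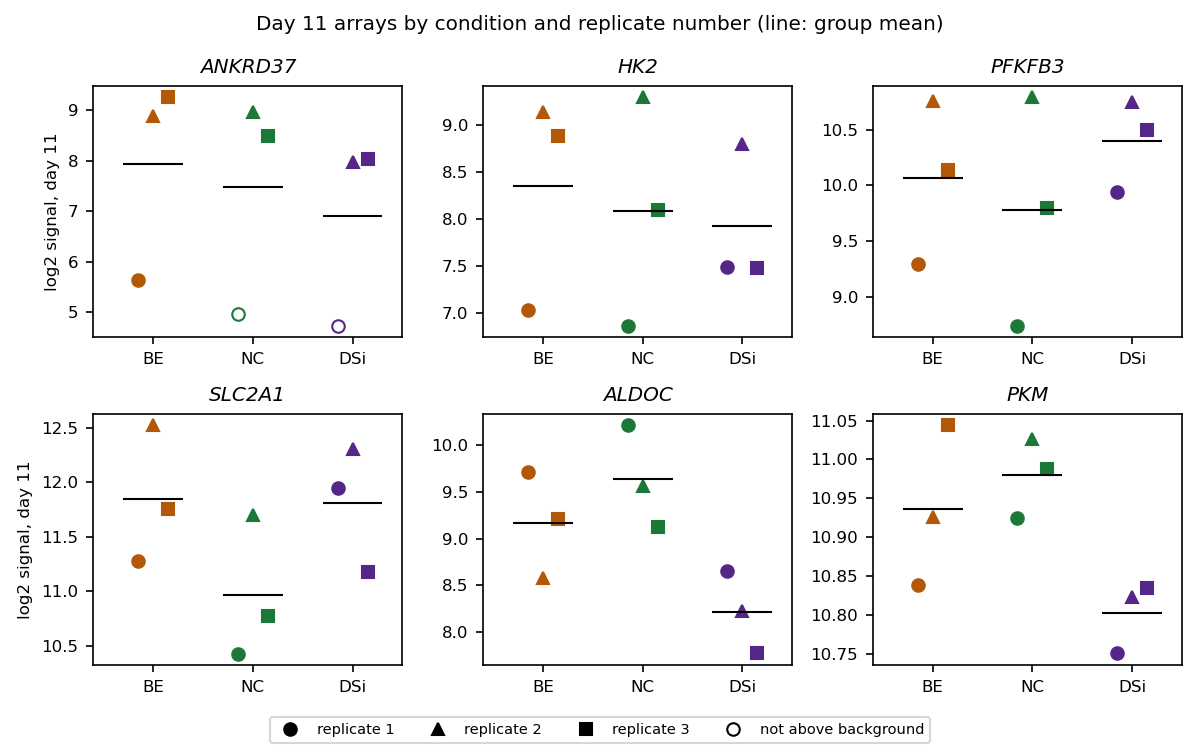
Log2 signals of the 9 day 11 arrays for 6 members in BE, NC and DSi (left to right), with the marker shape giving the replicate number, hollow markers arrays not above background and a line at each group mean. ANKRD37 replicate 1 stands at 5.64, 4.96 and 4.73, below the other arrays of its condition, while ALDOC replicate 1 is the highest of each.

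At day 8, NC and BE each differed from DSi in 5 of 32 members, and BE differed from NC in 1. The NC cultures had 4 members higher and 1 lower than DSi, with 6.69% of all genes called: PKM (0.85, SE 0.17), GPI (0.82, SE 0.18), P4HA2 (0.82, SE 0.23), PFKP (0.71, SE 0.20) and SLC2A1 (-0.95, SE 0.30). Leaving out DSi day 8 replicate 1 or NC day 8 replicate 3 left 2 calls, leaving out DSi day 8 replicate 2 left 3, and median scaling left 1. Between BE and NC at day 8 GPI alone differed, at 9.76 ± 0.25 in BE and 10.48 ± 0.16 in NC (-0.72, SE 0.18, adjusted p = 0.0203), with 1.85% of all genes called. That call was lost without BE day 8 replicate 1 or 2 or NC day 8 replicate 2. Set against DSi at day 8, BE cultures had 5 members higher and 0 lower, with 10.5% of all genes called (5.17% higher): NDRG1 (1.32, SE 0.31), EGLN3 (0.96, SE 0.30), PKM (0.89, SE 0.17), PFKP (0.81, SE 0.20) and LDHB (0.48, SE 0.13).

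By day 11, 5 members were higher and 1 lower in NC than in DSi, with 11.1% of all genes called. ALDOC was at 10.22, 9.57 and 9.13 in NC, against 8.65, 8.22 and 7.77 in DSi, and higher by 1.43 (SE 0.24, adjusted p = 1.30e-05). P4HA2 was at 8.84, 9.20 and 8.76 in NC, against 7.72, 7.51 and 7.46 in DSi, and higher by 1.37 (SE 0.23, adjusted p = 1.17e-05). EGLN3 was at 4.87, 5.19 and 5.09 in NC, against 6.62, 6.76 and 6.20 in DSi, and lower by 1.48 (SE 0.30, adjusted p = 3.54e-04). The EGLN3 probe averaged 5.99 over all arrays and was above background on 31 of 36, so the size of this difference leans on dim signals. Arrays of the 2 conditions did not overlap in these 3 genes. GPI, PFKP and PFKM were 0.57 to 0.70 higher and lost their calls without 1 or more single arrays, DSi day 11 replicate 3 among them. With the replicate number as a block, SLC2A1 (-0.84, SE 0.23, adjusted p = 0.00984) and BNIP3L (-0.46, SE 0.15, adjusted p = 0.0339) were called lower too. Median scaling gave 2 higher and 1 lower.

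The change from day 3 to day 11 differed between NC and DSi for 4 of 32 members, with 5.44% of all genes called. P4HA2 rose more in NC, by 2.27 against 0.97 in DSi (difference 1.30, SE 0.32, adjusted p = 0.00645), and so did ALDOC, which rose by 1.60 in NC and differed by 0.33 in DSi (difference 1.27, SE 0.34, adjusted p = 0.0127). SLC2A1 differed by 0.31 in NC and rose by 1.84 in DSi (difference -1.53, SE 0.43, adjusted p = 0.0218). EGLN3 differed by -0.31 in NC and rose by 1.10 in DSi (difference -1.41, SE 0.43, adjusted p = 0.0400). The 2 negative differences lost their call under median scaling, in the authors' values and without 1 of several arrays. ALDOC lost its call without NC day 11 replicate 1, NC day 3 replicate 2 or DSi day 11 replicate 3.

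BE cultures at day 11 had 3 members higher and 0 lower than NC, with 8.74% of all genes called. HK1 was at 11.43, 11.59 and 11.58 in BE, against 10.89, 10.91 and 10.97 in NC, with a gap between the groups, and higher by 0.60 (SE 0.14, adjusted p = 0.00212). ADM was at 8.55, 9.55 and 9.12 in BE, against 7.40, 7.97 and 8.07 in NC, and higher by 1.25 (SE 0.39, adjusted p = 0.0303). PGK1 was 0.54 higher (SE 0.16, adjusted p = 0.0212). With the replicate number as a block SLC2A1 was higher too (0.88, SE 0.23, adjusted p = 0.0079), and without BE day 11 replicate 3 only HK1 was called. ADM and PGK1 each lost the call without several single arrays. Against DSi at day 11, 9 members were higher in BE and 0 lower, with 16.5% of all genes called (8.21% higher): PFKP (1.26, SE 0.20), EGLN1 (1.14, SE 0.29), P4HA2 and ALDOC (0.96 each), PDK3, PGK1, GPI, HK1 and SLC2A3 (0.68 to 0.79).

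Set against day 0, more members were higher than lower at day 11 in each condition. In BE 19 members were higher and 3 lower (28.8% of all genes called), in NC 17 and 4 (29.4%) and in DSi 13 and 4 (27.4%). BNIP3 was at 11.43, 12.27 and 12.18 in BE, at 10.83, 12.10 and 11.57 in NC and at 11.37, 11.86 and 11.07 in DSi, against 8.50, 8.88 and 8.94 at day 0. BNIP3L was at 9.58, 9.47 and 9.36 in BE, at 8.96, 9.41 and 9.23 in NC and at 9.62, 9.68 and 9.70 in DSi, against 6.77, 7.17 and 7.41 at day 0. Every day 11 array of these 2 genes stood above every day 0 array. BNIP3 rose by 3.19 in BE, 2.72 in NC and 2.66 in DSi (SE 0.29 each), PFKFB4 by 3.10, 3.15 and 2.60 (SE 0.32 each) and TPI1 by 1.08, 0.98 and 1.02 (SE 0.16 each). EGLN1 was above background on 0 of 3 day 0 arrays and was at least 3.16-fold higher in BE, 2.27-fold in NC and 1.43-fold in DSi.

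At day 11, 9.38% of the members were lower than day 0 in BE, 12.5% in NC and 12.5% in DSi. Of all genes, 14.3%, 14.4% and 13.7% were lower. HK1 was at 11.43 to 11.59 in BE, 10.89 to 10.97 in NC and 10.74 to 10.92 in DSi, against 12.08 to 12.39 at day 0, and fell by 0.69, 1.29 and 1.39 (SE 0.14 each). ADM was 3.12, 4.38 and 4.11 lower (SE 0.39 each). PFKP fell by 0.91 in NC and 1.61 in DSi (SE 0.20 each), EGLN3 by 0.85 in BE and 1.72 in NC (SE 0.30 each) and SLC2A3 by 0.54 in DSi (SE 0.16); EGLN3 in BE and SLC2A3 in DSi lost their calls without 1 of several arrays. Under median scaling the counts were 13 higher and 2 lower in BE, 12 and 4 in NC and 7 and 4 in DSi; without DSi day 11 replicate 2, DSi gave 8 higher. ANKRD37, 1.91 to 2.93 higher, overlapped with day 0 in NC and DSi and lost its calls there without 1 of several arrays.

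Other genes of the pathways moved with the members to unequal extent. Of 23 other hypoxia-inducible genes tested, 11 rose and 2 fell in NC between days 3 and 6, with a median of 0.54. Of all genes, 10.9% were higher and 11.6% lower in this step. AK4 (a mitochondrial adenylate kinase) rose by 1.67 (SE 0.24, adjusted p = 8.64e-07) and KDM3A (a histone demethylase) by 2.06 (SE 0.32, adjusted p = 2.16e-06), while CA12 (another carbonic anhydrase) fell by 2.04 (SE 0.26, adjusted p = 3.68e-08), with 1 of 3 day 6 arrays above background. In DSi, where 6.81% of all genes were higher and 7.69% lower, 8 rose and 1 fell. AK4 rose by 1.88 (SE 0.24) and KDM3A by 1.79 (SE 0.32). Of 15 other genes of glucose and lactate handling, 6 rose and 1 fell in NC and 5 rose and 1 fell in DSi in the same steps. PGM1, which links glucose to glycogen, rose by 1.66 in NC and 1.34 in DSi (SE 0.18 each), GBE1 (glycogen branching enzyme) by 1.85 and 1.25 (SE 0.24 each) and ENO3 (muscle enolase) by 1.64 in NC (SE 0.18).

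Of 10 HIF subunits and regulators, 0 rose and 1 fell in NC in the same step, where 10.9% of all genes were higher and 11.6% lower. The gene that fell was ARNT2 (a partner of HIF alpha), by 0.99 (SE 0.18, adjusted p = 4.35e-05). In DSi 0 rose and 0 fell by limma, where 6.81% of all genes were higher and 7.69% lower, with ARNT alone at an unadjusted p under 0.05 (0.64). Arrays measure transcripts and not HIF protein. At day 11, CITED2, a target and inhibitor of HIF, was higher than at day 0 by 1.94 in BE, 2.23 in NC and 2.18 in DSi (SE 0.19 each). CITED2 already averaged 11.15 in NC and 11.08 in DSi at day 3, against 8.15 at day 0 and 10.10 to 10.38 at day 11. EPAS1 (HIF-2 alpha) was higher at day 11 than at day 0 by 3.02 in BE (SE 0.41, adjusted p = 7.12e-08). EPAS1 was also 1.89 higher in BE than in NC at day 11 (SE 0.41, adjusted p = 0.00102). Of 19 mitochondrial genes tested, 1 rose and 2 fell in NC between days 3 and 6, UQCRC1 of complex III by 0.73 (SE 0.17) and cytochrome c (CYCS) by 1.20 (SE 0.28), and PPARGC1A rose by 0.94 (SE 0.29). In DSi 0 rose and 3 fell. The shares of all genes given above are those of these steps too. Among 6 proliferation genes CDK1 rose by 1.04 (SE 0.20) and PCNA fell by 1.33 (SE 0.19) in NC in that step. Between days 6 and 8 in NC, where 2.88% of all genes were higher and 2.33% lower, 1 of the 6 rose and 2 fell. PCNA rose by 1.11 (SE 0.19), CDK1 fell by 1.11 (SE 0.20) and BUB1 fell by 0.84 (SE 0.19). The part of proliferation in the members' changes was not tested.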

How the data were processed

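Total RNA of 36 samples was measured on Illumina beadchips. Groups and replicate numbers came from the labels. Deposited probe signals, per the file headers, were intensity values on a linear scale, not normalized, for 47323 probes, each with a detection p-value, per the file headers. The deposited value table held log2 values for 34687 symbols, which the authors had quantile normalized, as the equal distributions of the arrays show. Per the submitters' processing notes Partek was used, with no version or role given. Gene names were carried to probes by matching both deposited tables array by array (47310 probes, 34684 genes, 26217 of them to 1 probe). Because 8467 genes were tied to several probes, the brightest passing probe stood for a gene; dim genes have compressed differences.

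In R 4.3.3 with limma 3.58.1, signals were background-corrected (normexp from detection p-values, offset 16), quantile normalized and log2-transformed. A probe stayed in when its detection p was below 0.05 on 3 or more arrays (29106 probes, 22848 genes). Group means were fitted on all 36 arrays (24 residual degrees of freedom, median residual SD 0.271) with a trended prior, and two-sided p-values were adjusted by Benjamini-Hochberg over all genes of a comparison, with 0.05 as the threshold. The number of arrays limits the precision. The fit was tested on simulated data. Where a gene was above background on 0 arrays of 1 group, a fold is a lower bound against the higher of its own signal and the lowest detected signal on each array.

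The members and the other gene lists were chosen with earlier results of these data known. All members are accounted for by role, and of each other list up to 3 genes with the smallest adjusted p in a comparison are named; the differences in the size of a step between days 3, 6 and 8 were added after seeing the data. Alternatives were the authors' values, median scaling, no background correction, other filters, the mean of a gene's probes, only the compared arrays, the replicate number as a block, and each array left out. Arrays with the same replicate number deviated together (all 3 pair correlations above 0.1) in 7 of 31 comparisons checked, with pair correlations from -0.058 to 0.308 overall; that pairing rests on the data, as no label explains the number. Promoter windows came from RefSeq (GRCh38.p14). Other tools were Python 3.11.15, pandas 2.3.3, numpy 2.4.6 and scipy 1.17.1.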

Additional observations from a re-analysis of the deposited data

Results flagged for a closer look

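In all, 7 differences of differences between NC and DSi cultures passed the limma test of the difference itself, each with p-values adjusted by Benjamini-Hochberg over all genes. In the step from day 3 to day 6, NDRG1 rose by 2.49 in NC and differed by 0.46 in DSi, a difference of 2.03 (SE 0.44, adjusted p = 0.00593). P4HA2 rose by 1.54 in NC and differed by 0.14 in DSi, a difference of 1.40 (SE 0.32, adjusted p = 0.0103). A second P4HA2 probe, above background on all 36 arrays, lay closer between the conditions, at 1.16 in NC and 0.36 in DSi. ALDOC rose by 1.87 in NC and differed by 0.51 in DSi, a difference of 1.35 (SE 0.34, adjusted p = 0.0230). Over the whole span from day 3 to day 11, P4HA2 differed by 1.30 (SE 0.32, adjusted p = 0.00645) and ALDOC by 1.27 (SE 0.34, adjusted p = 0.0127), higher in NC, and SLC2A1 by -1.53 (SE 0.43, adjusted p = 0.0218) and EGLN3 by -1.41 (SE 0.43, adjusted p = 0.0400), lower in NC. The early and late differences share the day 3 arrays. In the early step P4HA2 and ALDOC lost their calls without DSi day 6 replicate 3. The late SLC2A1 and EGLN3 differences lost their calls under median scaling, in the authors' values and with certain single arrays left out. The late ALDOC difference also lost its call with certain single arrays left out.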

How the results depend on the processing

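Of 215 called member differences in 24 comparisons, 117 kept their direction and call under every alternative and 212 kept their direction. Median scaling moved the median difference of all genes by -0.16 (day 1 against day 0) to 0.21 (BE against NC in the step to day 11), and it reversed TPI1 in NC day 3 against day 0 (-0.11) and, in NC day 6 against day 3, HK1 (0.046) and LDHB (0.021); the mean of a gene's probes also reversed HK1 (0.065). Apart from single arrays, the counts of called members that moved by more than 1.5 times were as follows, and the cause was not tested. Day 1 against day 0 gave 5 with median scaling, 3 with strict detection, 3 with the replicate block and 7 with only the compared arrays, against 1. DSi day 8 against day 6 gave 1 in the authors' values, 0 with median scaling and 1 with the mean of probes, against 3. With median scaling NC day 8 against day 6 gave 6 against 14, NC day 11 against day 8 gave 4 against 7, DSi day 11 against day 0 gave 11 against 17, NC against DSi gave 7 against 13 at day 6, 1 against 5 at day 8 and 3 against 6 at day 11. Only the compared arrays gave 9 for NC against DSi at day 8. BE against NC at day 8 gave 2 with strict detection, 2 with the replicate block and 2 with only the compared arrays, against 1, and at day 11 1 with the mean of probes, against 3. The difference in the step to day 6 gave 1 with median scaling and 1 with only the compared arrays, against 3; that in the step to day 8 gave 1 in the authors' values, 2 without background correction, 1 with strict detection, 2 with the replicate block and 2 with only the compared arrays, against 0. The late NC to DSi difference gave 2 in the authors' values, 2 with median scaling and 2 with only the compared arrays, against 4, and the late BE to NC difference gave 1 with strict detection, 1 with the replicate block and 1 with only the compared arrays, against 0.

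Leaving out single arrays gave these ranges of called members: 1 to 3 for day 1 against day 0 (3 without day 0 replicate 3); against day 0, 8 to 11 for NC day 3, 9 to 11 for DSi day 3, 17 to 20 for BE day 11, 18 to 21 for NC day 11 and 12 to 15 for DSi day 11; 25 to 28 in NC and 15 to 20 in DSi for day 6 against day 3; 10 to 12 in NC and 0 to 3 in DSi for day 8 against day 6; 7 to 11 in BE, 4 to 9 in NC and 5 to 8 in DSi for day 11 against day 8; 0 to 0, 7 to 13, 2 to 5 and 4 to 8 for NC against DSi at days 3, 6, 8 and 11; 0 to 1 and 1 to 4 for BE against NC at days 8 and 11; 9 to 11 for BE against DSi at day 11; and for the differences of steps 1 to 4 (early), 0 to 2 (to day 8), 1 to 4 (late NC to DSi) and 0 to 1 (late BE to NC). In the comparisons where replicate numbers paired the arrays, the replicate block ended no call; besides those given in the report it added TPI1 (0.47) in NC day 11 against day 8 and ADM (0.99) and LDHA (0.45) in BE against DSi at day 11. Where the numbers share only a code, the block gave 15 called members for BE day 11 against day 8, against 10. Signal over background limits CA9, PDK1, EGLN1, EGLN3 and ANKRD37, and VEGFA was read on 1 dim probe. Dim genes have understated differences.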
